A study of Mus musculus with 12 samples.

Results

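The regions described here are the m6A peaks of the hippocampus that were listed for Tyrobp-/- mice and had no counterpart in the list of WT mice. A peak of the knockout list was taken as knockout-only when its span, from first to last base and introns included, overlapped no WT peak by 1 bp or more, whichever strand it lay on. By this rule 7712 of 34935 knockout peaks (22.1%) were knockout-only, and the other 27223 were shared with WT. The same rule turned around left 6720 of 33622 WT peaks (20.0%) as WT-only. The share depended on the rule, at 46.3% of knockout peaks when a reciprocal overlap of 50% was asked for and at 7.18% among knockout peaks with a peak-calling FDR below 1e-5. The peaks were thus chosen by the calling p of IP against input in each genotype, which decides what enters a list, so their strength, width and calls are given as a description without a test.

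The mice were 6-month-old male WT and Tyrobp-/- littermates bred on C57BL/6, and the mutants carry a TALEN-made deletion in an early exon of Tyrobp, which encodes the microglial adaptor protein that relays signals of TREM2 and related receptors. Each genotype had 3 samples of hippocampal RNA, each pooled from 3 mice, and each sample gave an m6A immunoprecipitated (IP) and an input library. The mutation is present in every cell of the animal, so the mice are no model of a loss in microglia alone. The libraries held between 61189368 and 73554506 valid reads, with 62814416 to 68297502 in the knockout IP and 61189368 to 71579536 in the WT IP libraries, and peaks were called on the 3 samples of a genotype together. A peak therefore has 1 value per genotype and no replicate error, and the depth behind that value is unknown. Tyrobp itself had 0 peaks in either list, so the targeted gene could not be checked here.

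m6A is a methyl mark on adenosine in mRNA, placed by a writer complex around METTL3 and METTL14, removed by the demethylases FTO and ALKBH5, and bound by reader proteins such as the YTH family. It lies mostly in long internal exons, around stop codons and in 3' UTRs, and it bears on the splicing, stability and translation of an mRNA. In neurons it is known for its role in transcripts that act at synapses and in memory. The enzyme prefers a short sequence context that is often written as GGAC, or GGACT in its strongest form.

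Sequence could be read for the 86 knockout-only peaks that lay in 1 block inside a RefSeq promoter window of GRCm38.p6 (250 bases before to 50 after a gene's start) on the transcript's strand, 73 of them annotated to a 5' UTR. They are shown so that the letters under a peak can be seen. The whole peaks come from 2 long noncoding RNA genes and from the hairpin of Mir8102, a member whose listed span was the hairpin itself. The coding genes are shown as windows of 30 bases around the GGAC nearest the 5' end of the peak. All are written 5' to 3' in GRCm38.p6, with GGAC in capitals.
Meg3 (chr12:109545221-109545311, forward strand): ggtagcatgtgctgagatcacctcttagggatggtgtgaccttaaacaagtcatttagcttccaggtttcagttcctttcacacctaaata
Gm35823 (chr14:31268757-31268937, forward strand): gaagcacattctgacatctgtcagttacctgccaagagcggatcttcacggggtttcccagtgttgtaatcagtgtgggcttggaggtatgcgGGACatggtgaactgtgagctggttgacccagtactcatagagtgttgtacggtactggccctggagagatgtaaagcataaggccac
Mir8102 (chr11:97744897-97745035, forward strand): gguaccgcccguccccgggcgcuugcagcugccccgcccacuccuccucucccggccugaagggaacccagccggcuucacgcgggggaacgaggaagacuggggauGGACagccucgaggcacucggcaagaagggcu
Fstl1 (chr16:37776873-37776902, forward strand): aggagaGGACggggatgcctgcggtgcatg
Gosr2 (chr11:103697869-103697898, reverse strand): gagctGGACtttagcaaaaaactcaccccc
Uvssa (chr5:33378595-33378624, forward strand): cctcatctgaaagGGACtGGACcagagcgg
Cdkn2d (chr9:21291378-21291407, reverse strand): cgGGACtaatggaggtcgggctctgggcaa

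Relative to the RefSeq start of the gene, the peaks of Meg3 and Gm35823 began at bases -177 and -152. Those of Fstl1, Gosr2, Uvssa and Cdkn2d began at -182, -175, -147 and -198. Meg3, an imprinted noncoding RNA, had the strongest call of these, with a fold enrichment of 2.32 and a log10 FDR of -39.4 over 91 bases, and its peak held 0 GGAC on the transcript's strand. Fstl1, a secreted follistatin-like glycoprotein, had the largest fold among them, 14.3, and its peak held 2 GGAC. The peak of Mir8102 had a fold enrichment of 5.24 and a log10 FDR of -1.25. GGAC lay on the transcript's strand in 30 of the 86 peaks (34.9%, 95% interval 24.9 to 45.9) and on the other strand in 28 (32.6%), and GGACT in 9 and 4. Of the 95 shared knockout peaks that could be read in the same way, 38 (40.0%, 30.1 to 50.6) held GGAC on the transcript's strand. Per kb of sequence, the knockout-only peaks held 4.46 GGAC, the shared peaks 4.74 and the last 91 bases of all 32851 promoter windows 3.94, where 91 bases is the median length of the peaks read. In 29.7% of those windows GGAC was present. The last 91 bases lie around the gene's start, so their position differs from that of the gene peaks shown above. The intervals of knockout-only and shared peaks overlap, and these peaks near gene starts are few among the 7712.

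Most knockout-only peaks were assigned to genes that had another peak in WT, though less often than shared peaks were. Of the 7712 peaks, 5657 (73.4%, exact 95% binomial interval 72.4 to 74.3) were assigned to a gene with a WT peak elsewhere, and in 5068 of them at least 1 of that gene's WT peaks was itself shared. The share was 98.8% for shared knockout peaks, which overlap a WT peak by the rule, and 76.5% for WT-only peaks against the knockout list. The other 2055 peaks lay in 1712 genes with no WT peak, which is 10.6% of the 16169 genes of the knockout list, whereas 5991 genes (37.1%) had at least 1 knockout-only peak. The WT list gave a like picture, with 5176 genes holding a WT-only peak and 1328 of these without any knockout peak. Both kinds of peak occurred in 1728 genes, 28.8% of those with a knockout-only peak and 33.4% of those with a WT-only peak. In 444 genes every knockout peak was knockout-only and every WT peak WT-only, so these genes were marked in both genotypes without a shared position. In genes whose WT peaks were all WT-only, the 589 knockout-only peaks lay a median of 1134 bp from the nearest of them.

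Genes marked in the knockout list alone were more often noncoding or pseudogenes than genes marked in both lists. Of the 1445 such genes with a RefSeq entry, 73.2% were protein coding, 14.7% long noncoding RNAs and 10.7% pseudogenes. Of the 4049 matched genes that had a WT peak as well, 91.7% were protein coding, 6.89% long noncoding and 1.28% pseudogenes. Genes marked in the knockout list alone were also shorter, with a median listed gene length of 10742 bp over their peaks against 26521 bp over the peaks of genes with a WT peak. WT-only peaks gave a like split, with 9125.5 bp in genes without a knockout peak and 24776 bp in genes with one. Gene types were not split in this way for WT-only peaks. In 153 of the 1712 genes a WT peak assigned to another gene lay inside the gene's span, and in 33 it lay on the same strand.

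**Figure D1:**
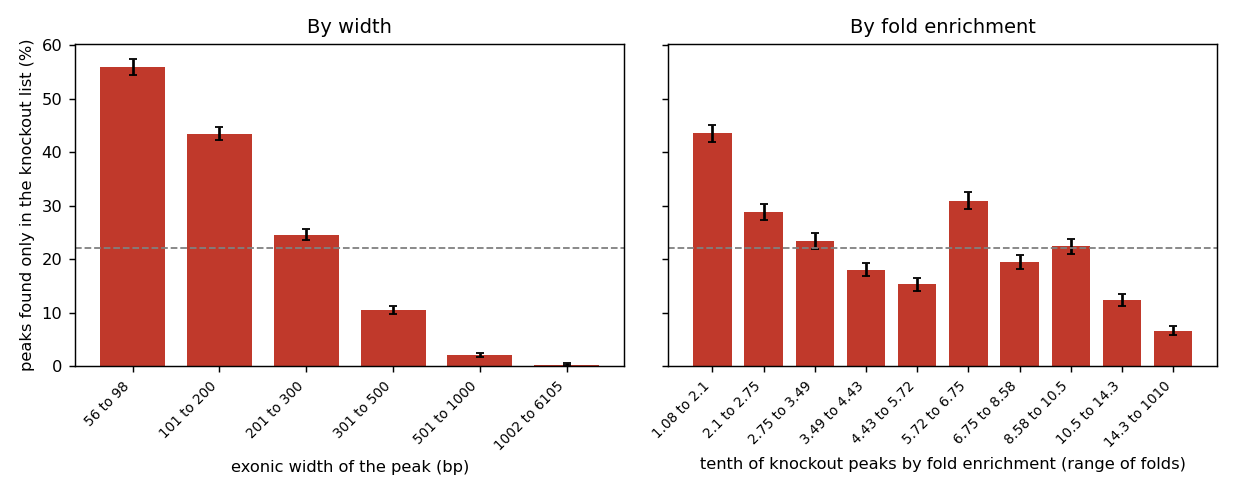
Share of knockout peaks found only in the knockout list, by exonic width of the peak (left, bp) and by 10 equal groups of the fold enrichment of IP over input (right); bars are percentages with exact 95% binomial intervals, and the dashed line is the share of all knockout peaks, 22.1%. The share falls from 55.9% in the narrowest to 0.285% in the widest peaks, and rises again to 30.9% at folds of 5.72 to 6.75.

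Knockout-only peaks were narrower and less strongly called than shared ones, and so were WT-only peaks. Their median exonic width was 150 bp against 390 bp in shared knockout peaks, and 32.2% were 100 bp or less against 7.21%. WT-only peaks had a median of 151 bp, with 30.8% at 100 bp or less. Their median fold enrichment, the ratio of IP over input reads scaled by the peak caller, was 4.29 (10th to 90th percentile 1.74 to 10.5), against 5.99 in shared and 4.39 in WT-only peaks. A calling p between 0.001 and 0.05 was listed for 56.6% of them, for 57.0% of WT-only and for 12.2% of shared peaks. An FDR below 1e-5 was listed for 1589 knockout-only peaks (20.6%), for 20.0% of WT-only and for 75.4% of shared peaks. Of the knockout peaks wider than 1000 bp, 9 of 3163 were knockout-only.

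The fold values came in steps. The 4 commonest folds of knockout-only peaks were 6.67, 7.62, 8.58 and 9.53, which together made up 26.8% of them, with a median log10 p of -1.64. The 4 commonest folds of shared knockout peaks made up 7.05% of that set. In WT-only peaks the commonest were 6.84, 7.81, 8.79 and 9.77, at 27.3%. Their calling p lay close to the limit of the lists, 0.05, and the reads behind each fold are not among the values used here.

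The place of these peaks in the transcript depended on how strongly they were called. Over all, 42.1% of knockout-only peaks were annotated to a 3' UTR against 51.4% of shared peaks, or -9.29 points (adjusted p = 5.61e-47 over 5 tests by two-sided Fisher exact tests). First exons outside the UTRs held 16.5% against 10.3% (difference 6.19, Fisher's exact test, adjusted p = 5.61e-47) and other exons 24.1% against 21.0% (difference 3.06, adjusted p = 1.53e-08). The 5' UTR share was 17.4% against 17.3% (Fisher's exact test, adjusted p = 0.932). Among peaks with an FDR below 1e-5 the order of the 3' UTR shares turned, with 71.6% of knockout-only against 59.5% of shared peaks (difference 12.2). This cut uses the calling values that also decide what enters a list, so no test is given for it. Among peaks with a fold of at least 4 the difference was -22.1 points. With 1 peak per gene kept in the knockout-only set and 1 in the shared set it was -17.2. The 3' UTR share of the shared set was then 62.1%, so this value depends on which peaks are kept. The tests above compare peaks of 1 pooled list and cover counting error only. The sets also differ in calling p, which decides what enters a list. These p-values therefore cannot show a difference in place at equal strength of call. Some of these peaks overlap or share a gene, so they are not independent.

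The same turn was seen within every band of the calling p. At a p of 0.001 to 0.05, 30.0% of knockout-only (28.6 to 31.4) and 23.2% of shared knockout peaks (21.8 to 24.7) lay in a 3' UTR. At 1e-5 to 0.001 the shares were 43.3% and 29.5%, and at 1e-10 to 1e-5 they were 63.3% and 34.8%. Under 1e-10 they were 76.1% (73.1 to 78.9) and 63.2%. By calling p, knockout-only peaks were mostly weak, and weakly called peaks of either set lay less often in 3' UTRs. The pooled difference had the opposite sign to that of each band. In the WT list the bands went the other way, with 39.1% of WT-only against 61.7% of shared WT peaks under 1e-10, and 34.3% against 41.0% at 1e-10 to 1e-5.

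By fold enrichment the split of knockout-only peaks ran the other way, with the higher 3' UTR share at small folds. Of the 1319 knockout-only peaks with a fold under 2, 67.2% (64.6 to 69.7) lay in a 3' UTR, against 27.4% of the 1502 with a fold of 8 or more. Shared knockout peaks stayed between 49.4% and 53.3% over the same bands. WT-only peaks with a fold under 2 lay in a 3' UTR in 40.7% of cases, and shared WT peaks in 61.4%.

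**Figure D2:**
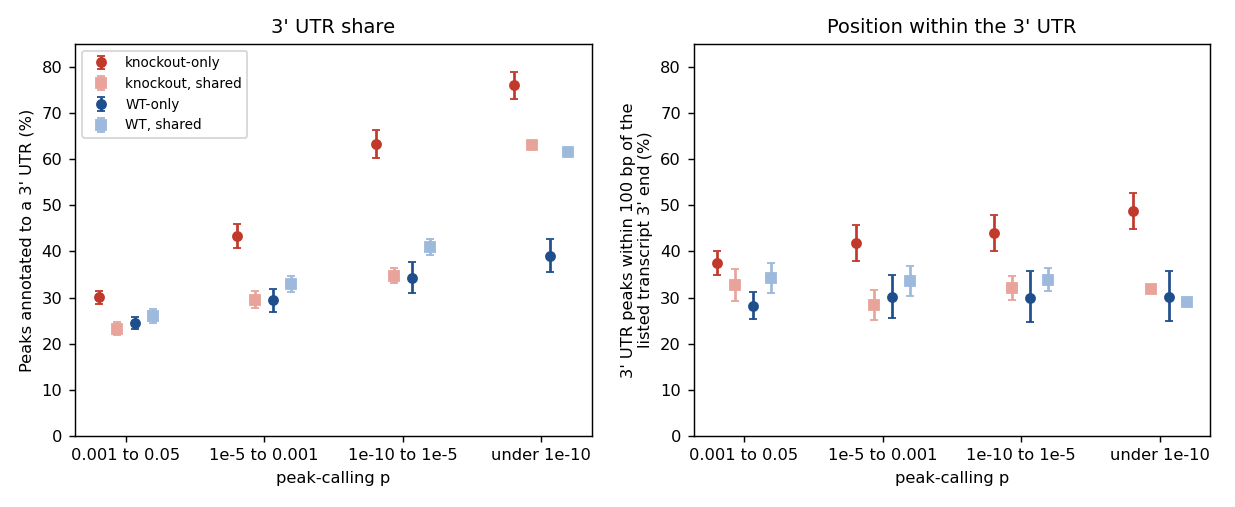
Left, share of peaks annotated to a 3' UTR, and right, share of 3' UTR peaks whose 3' edge lies within 100 bp of the listed transcript's 3' end, by bands of the peak-calling p, for knockout-only, shared knockout, WT-only and shared WT peaks; points are percentages and bars exact 95% binomial intervals. Knockout-only peaks are the highest in every band of the left panel, reaching 76.1%, and reach 48.8% in the right panel at a p under 1e-10.

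Within the 3' UTR, the knockout-only peaks also lay nearer to the transcript's end. Of the 3245 knockout-only peaks in a 3' UTR, 1361 (41.9%, 40.2 to 43.7) had their 3' edge within 100 bp of the 3' end of the transcript to which they were annotated, against 31.7% (30.9 to 32.5) of shared knockout, 29.1% of WT-only and 30.0% of shared WT peaks. At a calling p under 1e-10 the shares were 48.8% (44.9 to 52.7) in knockout-only and 31.8% in shared knockout peaks, with a median distance to the end of 90 bp against 626 bp. WT-only peaks of that band gave 30.1% and 716 bp. The shared peaks were the wider ones, with a median of 538 bp against 180 bp in that band. The RNA was poly(A)-selected in both genotypes and RNA quality per sample is not given in the sources used here. The G and C content of the IP reads was 48.5% to 49.3% in the knockout and 49.2% to 50.2% in the WT libraries, and its part in these shares was not tested.

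Seen from the nearest WT peak of the same gene, knockout-only peaks were spread widely. The median gap was 1005 bp (95% interval 927 to 1102). It was 100 bp or less for 13.8% of the 5657 peaks, 500 bp or less for 38.9% and over 10000 bp for 20.9%. WT-only peaks lay a median of 810.5 bp (749 to 897) from the nearest knockout peak of their gene. The side differed more than the distance did, since 52.6% (51.3 to 53.9) of knockout-only peaks lay 3' of the nearest WT peak, whereas 39.9% (38.5 to 41.2) of WT-only peaks lay 3' of the nearest knockout peak. Against the nearest WT peak of the gene, the median ratio of folds was 0.759, and 36.6% of knockout-only peaks had the larger fold. WT-only peaks gave 0.725 and 35.0% against the nearest knockout peak. Against the gene's strongest WT peak the median ratio was 0.510, and 1228 knockout-only peaks (21.7%) exceeded it.

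**Figure D3:**
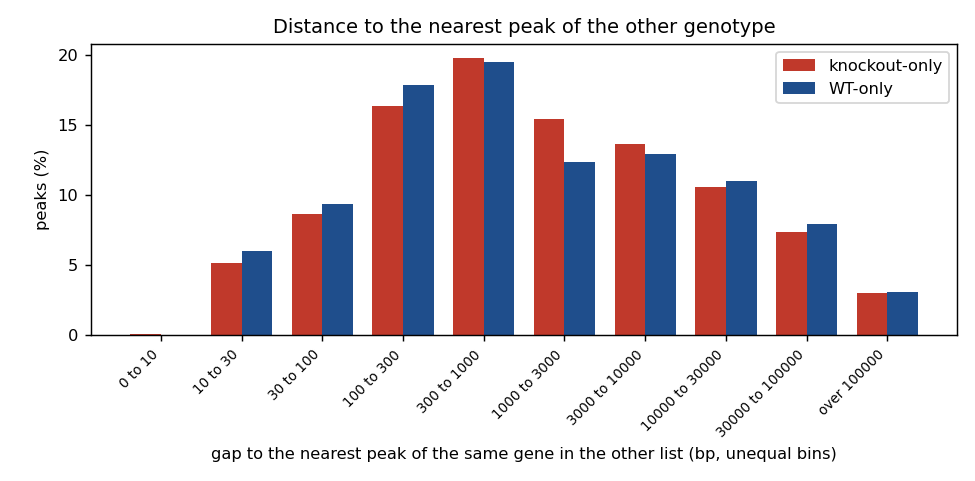
Gap in bp, in unequal bins, from each knockout-only peak to the nearest WT peak of the same gene (5657 peaks), and from each WT-only peak to the nearest knockout peak (5144 peaks), as a percentage of peaks. Both sets are most frequent at gaps of 300 to 1000 bp, with 19.8% of knockout-only and 19.5% of WT-only peaks.

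The limit of 1 bp cut through a continuum. The knockout peaks of Tdrp, Pdcd4, Syde1 and Tspan18 abutted a WT peak with a gap of 0 bp and so counted as knockout-only, with folds of 3.18, 1.83, 2.86 and 5.24. Only for Tdrp was the abutting WT peak assigned to the same gene. The peaks of Ighmbp2, Gucy1a2 and 9430041J12Rik overlapped a WT peak by 1 bp and counted as shared, with folds of 1.86, 3.30 and 1.87. In all, 339 knockout-only peaks lay within 30 bp of a WT peak (median fold 4.53, median width 121 bp), and 440 shared peaks overlapped by 30 bp or less (4.16 and 120 bp).

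Among genes without any WT peak, the largest folds at an FDR below 1e-5 belonged to transcripts of very different roles. Insl5, which encodes an insulin-like peptide hormone, had a 3' UTR peak of 203 bp at chr4:103017872-103018074 with a fold enrichment of 36.2. Gsk3a, which encodes the alpha form of glycogen synthase kinase 3, a kinase that phosphorylates tau, had a 91 bp peak in its 5' UTR at chr7:25237612-25237702 with a fold of 35.3. It had another knockout-only peak at the end of its 3' UTR, with a fold of 2.02 and a log10 FDR of -93.2, so both of its peaks were absent from the WT list. The kinase gene Map3k8 followed with 29.5, the ephrin ligand gene Efna3, whose peak was annotated to an exon of another gene, and the protease inhibitor gene Ctla2a with 24.8 each, and Cd63, a tetraspanin of endosomes, with 24.3. Mogat1, an acyltransferase of lipid synthesis, Snrpe, a core protein of spliceosomal particles, Lbp, the lipopolysaccharide-binding protein, and Catsperd, a subunit of the sperm calcium channel, each had a fold of 22.9. Of these 10 peaks, 5 lay in a 3' UTR, 4 in a 5' UTR and 1 in another exon.

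Among genes that had a WT peak elsewhere, the 10 peaks with the largest folds each lay above their gene's strongest WT peak, by differing amounts. They were picked for their large folds, so this order was largely set by the choice. Polr1d, a subunit shared by RNA polymerases I and III, had a 3' UTR peak at chr5:147104208-147105393 with a fold of 230 and a log10 FDR of -66.8, 476 bp from a WT peak with a fold of 10.6. Nckap1, a part of the WAVE complex that builds actin networks, had a 5' UTR peak at chr2:80581111-80581320 with a fold of 81.0, while its 1 WT peak, in the 3' UTR, had 2.59. Sprr2a2, a small proline-rich gene of the epidermis, had 2 such peaks, with folds of 69.6 and 31.4. It belongs to a family of near-identical copies between which reads may be split, so its values are uncertain. Fam19a5, which encodes a secreted protein of the brain, had a 61 bp peak with a fold of 39.5 and a log10 FDR of -76.7 only 119 bp from a WT peak of 14.9. Slc25a28, a mitochondrial iron carrier, reached 33.4, and Htatsf1, a splicing-associated factor, 31.4 against 2.17 in its strongest WT peak. The relaxin gene Rln1 had 28.6 against 18.6, and Naa15, a subunit of an N-terminal acetyltransferase, 25.7 against 9.18. The pseudogene Pabpc1l2b-ps reached 31.4 next to a WT peak of 7.81. Large folds came in steps too. Htatsf1 and the Sprr2a2 peak with the same fold also had the same log10 p, -8.36. Above, Efna3 and Ctla2a shared a log10 p of -6.42, and Lbp and Catsperd one of -5.87. The reads behind these folds are not among the values used here, so the size of the folds is uncertain.

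**Figure D4:**
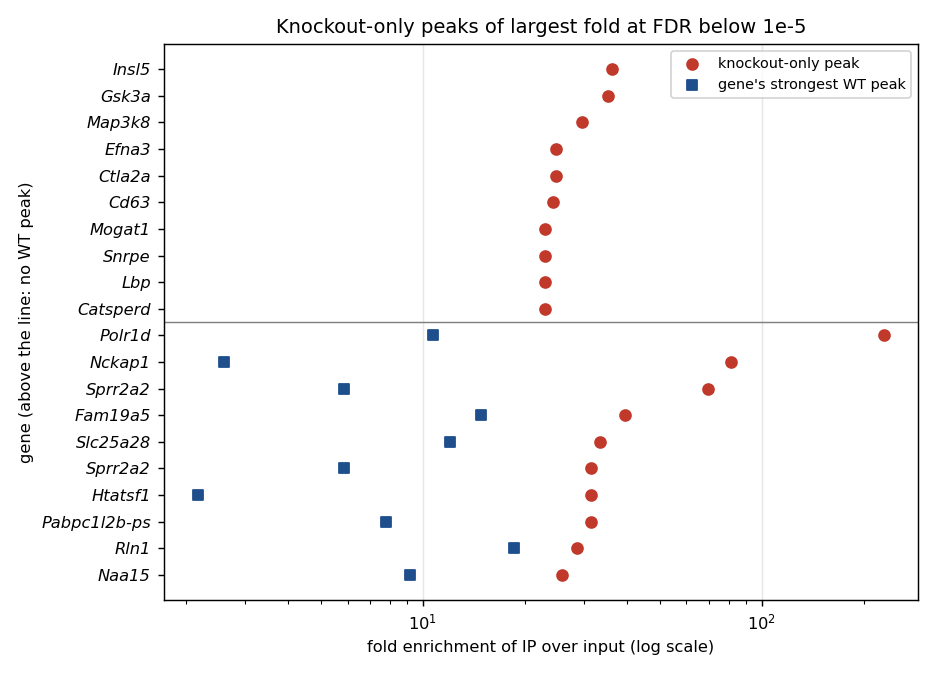
Fold enrichment of IP over input (log axis) of the 20 named knockout-only peaks with the largest folds at an FDR below 1e-5 (red circles), with the strongest WT peak of the same gene (blue squares) for the 10 peaks below the line; genes above the line have no WT peak. Each point is 1 pooled value without replicate error, from 22.9 in Catsperd to 230 in Polr1d.

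Predicted and Riken gene models made up 18.4% of knockout-only, 18.9% of WT-only and 14.1% of shared knockout peaks. The largest knockout-only ones were Gm6286 with a fold of 167, Gm3005 with 128 and Gm11847 with 97.2. Gm5641 had 2 overlapping rows, with 56.2 and 54.3, which describe much the same region. In all, 465 knockout-only peaks overlapped another one and 8 shared an identical position, so the 7712 rows are not that many separate regions.

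The peaks with the lowest FDR were of another kind, with small folds, several of them in genes that nearly every cell uses. Rps6, a protein of the small ribosomal subunit, Atp5k, a subunit of mitochondrial ATP synthase, Psap, the precursor of lysosomal saposins, and Dynll2, a dynein light chain, had an FDR listed at 0, with folds of 3.83, 2.32, 2.72 and 2.19 in their 3' UTRs. Atp5j2, another ATP synthase subunit, had 2.05, the tubulin gene Tuba1a 1.64 and the chaperone gene Hspa8 1.55. These 3 genes, like Rps6 and Atp5k, had no WT peak at all. Dynll2 held a further knockout-only peak in its 5' UTR, with a fold of 6.74, 88 bp from a WT peak of 1.71. Cbx6, a chromobox protein of polycomb complexes, had 2.65 at 1707 bp from a WT peak of 6.60, and Unkl, a zinc finger gene, had 5.10 at 29 bp from a WT peak of 9.30. In all, 7 of these 10 peaks lay in a 3' UTR, which is close to the 71.6% of all 1589 strongly called knockout-only peaks. Those had a median fold of 2.30, and 81 of them had a fold of 10 or more.

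Pathway terms of the deposited annotation gave shares on both sides of the background. Of 4975 genes with a knockout peak and a term, 37.1% had a knockout-only peak and 8.60% had such a peak and no WT peak. Of 73 ribosome genes, 30 (41.1%) had a knockout-only peak and 13 (17.8%) had no WT peak beside it. Oxidative phosphorylation gave 28 of 75 (37.3%) and 11 (14.7%). For the glutamatergic synapse the counts were 34 of 87 and 8, for the GABAergic synapse 27 of 65 and 5, for long-term potentiation 14 of 54 and 5, and for the Alzheimer disease term 38 of 115 and 8. Neuroactive ligand-receptor interaction had 9 of 233 genes (3.86%) and axon guidance 7 of 162 (4.32%) with a knockout-only and no WT peak. No set was tested.

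The genes of the m6A machinery carried 7 knockout-only peaks in 6 of the 17 genes with a knockout peak (35.3%, against 37.1% of all genes). The demethylase gene Alkbh5 had 2, with folds of 1.57 and 1.72 and log10 FDRs of -6.89 and -5.08, beside a WT peak of 14.6 in its 5' UTR. The other demethylase gene, Fto, was assigned a fold of 12.4 at 385 bp from a WT peak of 23.4, with a log10 FDR of -2.25, but the annotated exon belongs to another gene, ENSMUSG00000110325. Virma, a large scaffold of the writer complex, had 1.97 in its 3' UTR, and the nuclear reader Ythdc1 had 2.59. The reader genes Hnrnpa2b1 and Igf2bp3 had 6.19 and 2.27, and of these 6 genes Igf2bp3 alone had no WT peak. The writer gene Mettl3 had no peak in either list.

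Among receptors of glutamate, 9 of 20 genes with a knockout peak (45%, against 37.1% of all genes) held 13 knockout-only peaks. In each of the 9 a WT peak was present elsewhere. The strongest calls were 3' UTR peaks with small folds. Grin2a, a subunit of NMDA receptors, had 1.74 over 330 bp, 30 bp from the transcript's end, with a log10 FDR of -44.1 and a strongest WT peak of 15.4. Grin2b, another NMDA receptor subunit, had 1.73 (log10 FDR -15.0), the AMPA receptor gene Gria3 2.62 at the very end of its transcript (-16.0), and the kainate receptor gene Grik2 1.67 (-10.7). Outside the 3' UTR, Gria2 had a fold of 9.53 and Grin2d folds of 6.99 and 6.67, at FDRs above 1e-5. Only in Gria2 did a knockout-only peak exceed the gene's strongest WT peak, which had 7.63.

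Receptors of GABA looked alike, with 6 of 13 genes (46.2%, against 37.1% of all genes) and 8 peaks. Of these peaks, 5 lay in a 3' UTR, and all were in genes with a WT peak. Without peaks outside the RefSeq gene or in an exon of another gene, 6 peaks in 5 genes were left. Gabbr1, a subunit of the metabotropic GABA-B receptor, had a 91 bp peak at chr17:37072999-37073089 with a fold of 2.13 and a log10 FDR of -196, and its strongest WT peak had 7.16. Its partner Gabbr2 had 2.46 at the end of the transcript (log10 FDR -61.5) against 17.9 in WT, and Gabra2 had 3.30 (-20.3) against 13.7. Gabrd, the delta subunit of extrasynaptic receptors, had 10.5 in its 5' UTR against a WT peak of 3.13, at a log10 FDR of -2.37.

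Scaffolds and organizers of the synapse held 15 knockout-only peaks in 9 of 23 genes (39.1%, against 37.1% of all genes). The adhesion molecule gene Nlgn2 had a 3' UTR peak with a fold of 1.63 and a log10 FDR of -70.5, beside a strongest WT peak of 13.6. Lrrtm4 held 4 knockout-only peaks with folds of 3.05 to 8.58 and Dlg2 3 with 4.76 to 7.62, all at FDRs above 1e-5. No knockout-only peak of this list exceeded its gene's strongest WT peak. Of the 4 peaks of Lrrtm4 all, and of the 3 of Dlg2 2, were annotated to an exon of another gene. Without such peaks and those outside the RefSeq gene, the list kept 8 peaks in 8 genes. Of 17 activity-induced genes with a knockout peak, 2 (11.8%, against 37.1% of all genes) held a knockout-only peak, with 6.67 in Egr2 and 2.24 in Nr4a3. Of the 18 activity-induced genes with a WT peak, 6 held a WT-only one, beside 5176 of all 15804 genes with a WT peak.

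Of 17 genes of amyloid precursor processing and tau with a knockout peak, 5 (29.4%, against 37.1% of all genes) held 8 knockout-only peaks. Gsk3a is given above. Mapt, which encodes tau, had a fold of 2.52 in its 5' UTR (log10 FDR -13.3), and its 3 WT peaks reached 5.29. App was assigned 3, of which the strongest call was in the 5' UTR with a log10 FDR of -9.80, and its strongest WT peak had a fold of 11.2. Its 3' UTR peak, with a fold of 6.67, lay outside the RefSeq gene of that name. The peak with a fold of 10.5 was annotated to an exon of another gene. Without such peaks the list kept 6 peaks in 5 genes. Aph1a, a subunit of gamma-secretase, had 1.78.

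**Figure D5:**
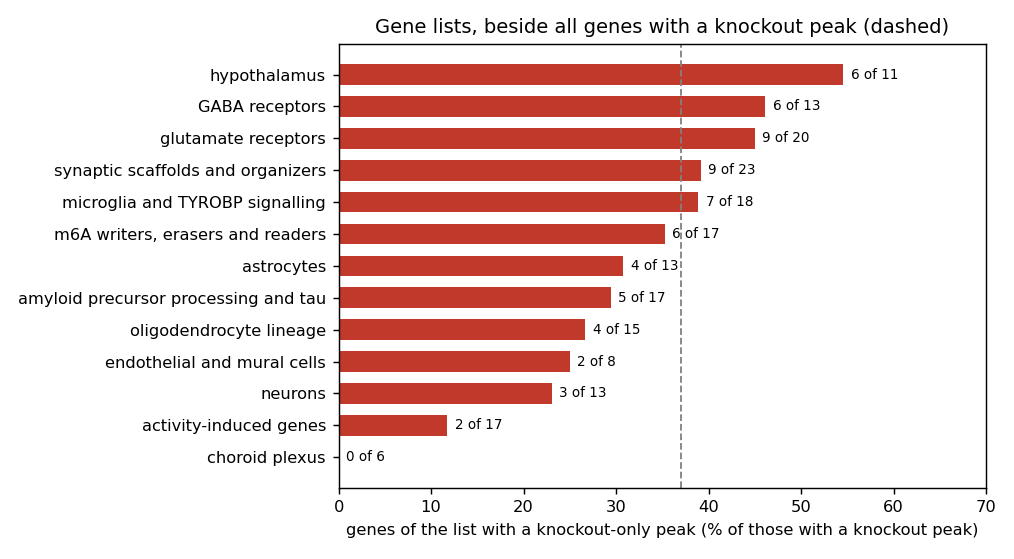
Percentage of the genes of each list that hold a knockout-only peak, among the list's genes with any knockout peak (counts beside the bars); the dashed line is the share over all genes of the knockout list, 37.1%. The lists range from 0 of 6 choroid plexus genes to 6 of 11 hypothalamus genes.

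Of the microglial list, 7 of 18 genes with a knockout peak (38.9%, against 37.1% of all genes) were assigned 10 knockout-only peaks. Fcer1g, a signalling adaptor like TYROBP, had a 117 bp 3' UTR peak at the transcript's end with a fold of 2.56 (log10 FDR -12.6) and no WT peak. The lectin gene Siglech had 4.00 (-18.0) against a WT peak of 3.13, P2ry12 2.29, Sall1 1.74 and Ptprc 3.81. The 4 peaks assigned to Cx3cr1 lay outside the RefSeq gene of that name and are not read as peaks of it, which leaves 6 genes and 6 peaks. Defining microglial genes Trem2, Itgam and Cd68 had no peak in either list. Fewer cells of a type and less RNA per cell cannot be told apart in bulk tissue.

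Markers of the other cells gave 4 of 13 astrocyte genes (30.8%) and 4 of 15 of the oligodendrocyte lineage (26.7%). Without peaks outside the RefSeq gene or in an exon of another gene, 3 genes were left in each of these lists. Neurons gave 3 of 13 (23.1%) and vessels 2 of 8 (25.0%), against 37.1% of all genes. Mal, a myelin membrane protein, had the strongest call in these lists, 1.68 at a log10 FDR of -163, 30 bp from the transcript's end. None of the 6 choroid plexus genes with a knockout peak held a knockout-only one. Of the 11 with a WT peak, 10 held a WT-only one, beside 5176 of all 15804 genes with a WT peak. Ttr had no peak in either list. Of 11 hypothalamic genes with a knockout peak, 6 (54.5%, against 37.1% of all genes) held a knockout-only peak. Among them were Pomc (1.74), Crh (1.72 and 6.67), Sim1 (14.3 and 6.67) and Nkx2-1 (11.4), and none of the 8 peaks had an FDR below 1e-5. Of the 13 hypothalamic genes with a WT peak, 8 held a WT-only one, so both lists held peaks of their own in these genes. The part of the tissue dissected in the knockout-only peaks was not tested.

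Most genes had 1 knockout-only peak. Of the 5991, 4669 had exactly 1, 1041 had 2, 202 had 3 and 79 had 4 or more. The highest count, 14, was listed for Fgfr2, a receptor of fibroblast growth factors, but the assigned transcript model spans 2960900 bp and the RefSeq gene 104358 bp. Only 1 of the 14 peaks overlapped the RefSeq gene, and the others lay across the RefSeq spans of genes such as Tacc2, Dmbt1, Cpxm2 and Ctbp2. In the same way, the 7 peaks of Fars2 all lay outside its RefSeq span and 5 of the 7 of Camta1 did. The 6 each of Ccdc62, Tcp11, Arhgap27 and Gvin1, the 6 of Kcnq1 and 5 of the 7 of Ankef1 overlapped the RefSeq gene of the same name, and Gvin1 belongs to a family of near-identical copies. This does not settle the gene, since all 6 peaks of Kcnq1, 4 of 6 of Tcp11 and 3 of 6 of Arhgap27 were annotated to an exon of another gene, and Kcnq1ot1, 4930526A20Rik and Arhgap27os3 overlap some of these peaks in RefSeq. Of the 3127 knockout-only peaks annotated to an exon outside the UTRs, 509 (16.3%) named an exon of a gene other than the assigned one, against 15.4% of shared knockout and 14.6% of WT-only peaks. Over all knockout-only peaks with a matching RefSeq symbol, 92.4% (91.8 to 93.0) overlapped that gene, against 95.4% of shared knockout peaks. Among those that did, 73.9% lay in a gene with a WT peak that also did.

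The share of knockout-only peaks ran from 16.8% to 26.0% over the 20 chromosomes with at least 500 knockout peaks. Rows of the deposited genotype comparison overlapped 1353 knockout-only peaks (17.5%) and 4510 shared knockout peaks (16.6%).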

How the data were processed

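Peak lists of 3 WT and 3 Tyrobp-/- samples were used. The authors trimmed reads with fastp, mapped them with HISAT2 to the mouse genome (Ensembl v96, GRCm38), ran exomePeak on all IP and input libraries of a genotype at once to call peaks, and assigned these to transcripts with ChIPseeker; fastp, HISAT2, HOMER and ChIPseeker are also named in the submitters' processing notes, without versions. The authors deposited counts of raw and valid reads and the percent of bases that were G or C or reached Q30 per library. For each peak the authors deposited the p-value of IP against input with log10 values of that p and of the FDR, and the fold enrichment, a ratio of IP to input. A table comparing genotypes holds the authors' fold changes, p-values and FDRs; its values were not used, only its row positions, so the planned description of its values was not made.

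Libraries were made with dUTP, but whether peak calling used strand is not given in the sources used here. Exonic width is the sum of a peak's blocks. Shares have exact (Clopper-Pearson) 95% binomial intervals and medians order-statistic intervals. Annotation shares were compared by Fisher's exact test, two-sided, with Benjamini-Hochberg adjustment over 5 tests, the single-block share among them, which is tied to the span the rule uses and is not read. Intervals cover counting error only. Overlaps were tested on simulated data and against bedtools 2.31.1. Genes were matched by symbol to RefSeq GRCm38.p6, from which all sequences come; no genome sequence was at hand. Among knockout-only peaks with an FDR below 1e-5, named genes are the 10 largest folds in genes without and the 10 in genes with a WT peak (predicted and Riken models left out of both and their 5 largest given apart) and the 10 lowest FDRs; then the 5 genes with most peaks (ties kept), the peaks nearest the 1 bp limit, and genes of fixed lists, 4 of each list at most by lowest p. Further list genes, the bands of fold and p, the distance to the transcript's end, the fold steps, the RefSeq check and the peaks shown with sequence were picked once values were known. Some genes that these rules would name are not reported here. The peaks and lists were chosen with earlier results of these data known. Computation used pandas 2.3.3, scipy 1.17.1 and numpy 2.4.6 in Python 3.11.15, and matplotlib 3.10.9 drew the figures.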

Additional observations from a re-analysis of the deposited data

How the results depend on the processing

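No paired analysis was possible because the lists hold 1 value per peak over the pooled replicates of a genotype, and for the same reason no replicate could be left out. The median width and fold, the knockout-only share and the share in genes with a WT peak were read under 7 other settings. With a reciprocal overlap of 50%, 46.3% of knockout peaks were knockout-only, 85.9% of them in a gene with a WT peak, with a median fold of 4.76, a median width of 181 bp and a 5' UTR difference of -0.57 points. Overlap of exonic blocks gave 22.6% knockout-only. Same strand only gave 23.6%, 72.2% and a fold of 4.35. Counting a WT peak within 100 bp as an overlap gave 19.5% and 70.6%, and the 5' UTR difference was -0.058. With an FDR below 1e-5, 7.18% were knockout-only, with a median fold of 2.30 and a width of 180 bp, and the differences turned to 12.2 points for the 3' UTR, -5.49 for the 5' UTR, -0.55 for first exons and -6.11 for other exons. With a fold of at least 4 the values were 17.8%, 69.4%, 7.62 and 181 bp, and the 5' UTR difference was 2.48. With 1 peak per gene kept in the knockout-only set and 1 in the shared set, a gene with both kinds counts in each. The values were then 29.9%, 71.4% and a fold of 4.12, with a 5' UTR difference of 4.35 (Fisher's exact test, adjusted p = 1.12e-15). Peaks without replicate values limit every comparison of the genotypes.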
